A study of Oryza brachyantha and Oryza sativa Japonica Group and Oryza glaberrima with 38 samples.

Results

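Chromosome 12 was followed through the histone mark lists of 4 Oryza species and Leersia perrieri. Its members are all peaks called on that chromosome between 2.5 Mb and 500 kb before its end, a stretch called the interior here. They number 30624 of the 532158 intervals in the series, or 5.75%, and come from 20 of its 21 lists. The chromosome was taken to end at the last peak of any list of the assembly. The interior measured 24.5 Mb in O. sativa, 16.1 Mb in O. glaberrima, 24.9 Mb in O. punctata, 13.9 Mb in O. brachyantha and 14.8 Mb in L. perrieri.

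The lists come from chromatin immunoprecipitation sequencing (ChIP-seq) of greenhouse plants, using above-ground tissue at the tillering stage (60 days) or seedling shoots (2 weeks). O. sativa, Asian rice, was of the japonica variety group. O. glaberrima is African rice, O. punctata and O. brachyantha are wild rices, and Leersia is the sister genus of Oryza. H3K9me2 was profiled at tillering in 1 library each of O. sativa, O. glaberrima, O. punctata and L. perrieri and in 2 of O. brachyantha (batches 1 and 2). At the seedling stage it was profiled in 2 libraries of O. sativa and 1 of O. brachyantha. In O. sativa the other marks were H3K4me3 at tillering and H3K56Ac and H3K27me in seedlings, 1 list each. In O. brachyantha they were H3K4me3 (2 batches), H3K4me2, H3K9Ac, H3K27me2 and H3K56Ac at tillering and H3K4me3 and H3K27me in seedlings. The labels write H3K27me with no degree of methylation, and it is kept so. The labels do not state that replicate libraries were made from different plants, so their spread may be technical.

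Dimethylation of lysine 9 on histone H3 is the hallmark of constitutive heterochromatin in plants. It is maintained in a loop with DNA methylation, silences transposable elements, and is densest around centromeres. H3K4me3, H3K9Ac and H3K56Ac lie over transcribed genes, close to gene starts. H3K4me2 also lies over genes and is grouped here with the active marks, but it is not read as a sign of transcription. H3K27me2 belongs to the Polycomb-related group of marks, which cover genes kept silent outside constitutive heterochromatin.

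The measure used throughout is the covered share, the percent of bp inside the authors' merged peaks, and it depends on how many peaks were accepted. The lowest −log10 q that a H3K9me2 list accepted lay between 0.237 and 0.504 in tillering O. sativa, L. perrieri, O. punctata and O. glaberrima, and at 1.01 or above in the other groups, so levels are not compared between species. Replicate 2 of O. sativa seedling H3K9me2 was called against histone H3 and not input. It stood apart from its partner most between 20 and 21 Mb and is given there with and without. It also departed at 5.5 to 6 Mb, with 26.5% against 18.4% in replicate 1. There its interval chr12:5607945-5647855 (39.9 kb) was covered to 41.6 to 52.6% by the other H3K9me2 libraries and to 15.8% by H3K27me.

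H3K9me2 covered more of chromosome 12 than of the average chromosome in all 5 species. At tillering the interior of chromosome 12 was covered to 26.8% in O. sativa, against a mean of 21.5% for the interiors of the other 11 chromosomes. The share was 15.9% against 13.1% in O. glaberrima and 3.74% against 2.51% in O. punctata. It was 19.9% and 25.2% in the 2 O. brachyantha batches, a mean of 22.5% ± 3.74 (SD, n = 2) on chromosome 12, against 11.6% on the others. In L. perrieri it was 11.3% against 7.24%. Chromosome 12 was at rank 1 of 12 in O. sativa, O. punctata, O. brachyantha and L. perrieri, and at rank 3 in O. glaberrima, where chromosome 10 was highest at 18.6%. The next chromosome was close in some. It was chromosome 8 at 25.2% in O. sativa and 9.94% in L. perrieri, and chromosome 6 at 3.07% in O. punctata. In O. brachyantha it was chromosome 10 at 20.4%, and chromosome 12 ranked first in each of the 2 batches. The SD of 3.74 is that of chromosome 12 between batches, not of its difference from chromosome 10. The difference averaged 4.84 percentage points ± 3.69 (SD over 5 species) and was positive in 5 of 5. The exact two-sided sign-flip permutation test over the 5 species gave p = 0.0625, the smallest p that its 32 sign patterns allow, so this design cannot reach 0.05. The test treats the species as independent, though they are related, so the 5 positive differences need not be separate observations. Seedlings gave the same rank: 23.1% ± 1.90 (SD, n = 2; libraries at 21.8% and 24.5%) on O. sativa chromosome 12 against 18.1% on the others, and 27.1% against 14.5% in O. brachyantha. Chromosome 12 was the 10th longest of the 12 in each species, and the part of chromosome length in this difference was not tested.

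**Figure D1:**
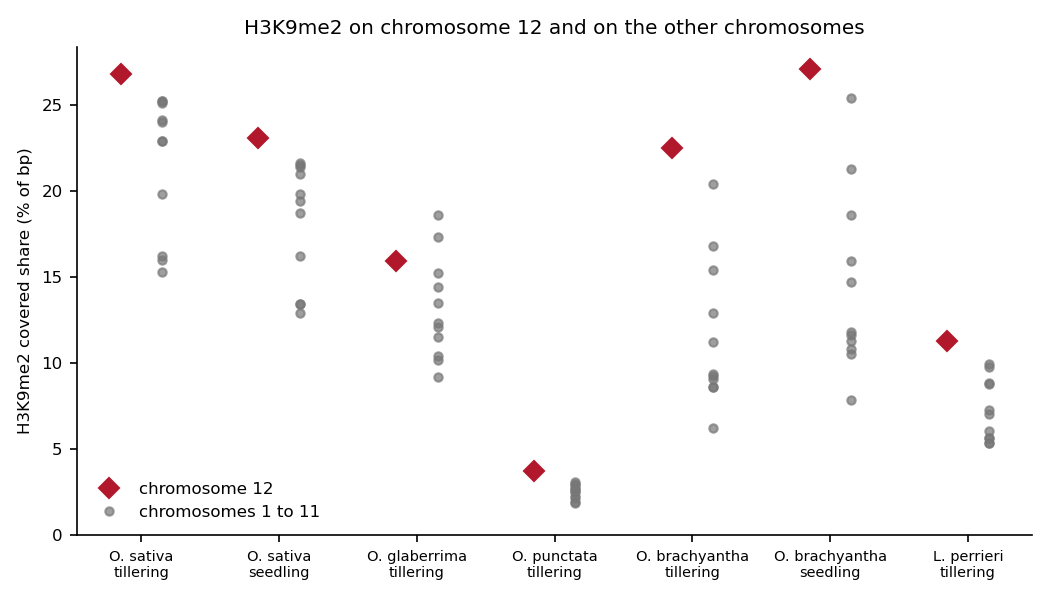
H3K9me2 covered share (% of bp) of the interior of chromosome 12 (red diamonds) and of each of chromosomes 1 to 11 (grey points) in the 7 H3K9me2 groups, as means over libraries where a group has 2. The diamond is the highest value in every group except O. glaberrima, where it has rank 3 at 15.9%.

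For the active marks, chromosome 12 stood at the lowest rank or next to it. Chromosome 12 ranked 11th of 12 for H3K4me3, H3K4me2 and H3K9Ac in every list of these marks and for O. brachyantha H3K56Ac, with chromosome 11 lowest in each. For O. sativa H3K56Ac it ranked 12th, at 3.44% against a mean of 5.47% on the others. H3K27me ranked first in both species, at 30.5% against 25.0% in O. sativa and 30.3% against 16.7% in O. brachyantha. H3K27me2 ranked 11th, at 5.43% against 6.29%.

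Of 4 equal stretches of the interior, the second from the left held the largest part of H3K9me2 in all 5 species. The interior leaves out 2.5 Mb on the left and 500 kb on the right, so its middle lies right of the chromosome's middle. The mean position of its H3K9me2 bp at tillering was at 49.5% of chromosome length in O. sativa and 49.2% in O. glaberrima. It was at 50.3% in O. punctata, 47.4% in O. brachyantha and 45.6% in L. perrieri. The interior was cut into windows of 500 kb, and a window is called H3K9me2-rich here when its covered share is at least 2 times that of all 12 chromosome interiors in the same group. At tillering 10 of 28 windows (35.7%) were rich in O. brachyantha, where 17.5% of the windows of all chromosomes passed the same rule. L. perrieri had 9 of 30 (30.0%) against 13.9% over all chromosomes, O. punctata 11 of 50 (22.0%) against 11.3%, and O. sativa 8 of 49 (16.3%) against 11%. O. glaberrima had 4 of 32 (12.5%), close to its 12.9% over all chromosomes. In seedlings 10 of 49 windows (20.4%) were rich in O. sativa against 11.4%, and 10 of 28 (35.7%) in O. brachyantha against 17.7%. With the interior cut into 4 equal stretches, the second from the left held 64.6% of the H3K9me2 bp in O. brachyantha, 47.9% in L. perrieri, 47.1% in O. glaberrima, 38.5% in O. sativa and 37.2% in O. punctata. The last stretch held 2.10% in O. brachyantha, 6.50% in L. perrieri, 7.13% in O. glaberrima and 12.5% in O. sativa. In O. punctata it held 19.7%, and a single window described below held 13.4%. With each interior divided into 20 equal bins, the profiles of the 5 species followed one another, with Spearman's rho between 0.671 (O. sativa and O. punctata) and 0.862 (O. glaberrima and L. perrieri). All of these profiles share the fall of H3K9me2 from the middle to the ends, so the correlations are a description only.

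**Figure D2:**
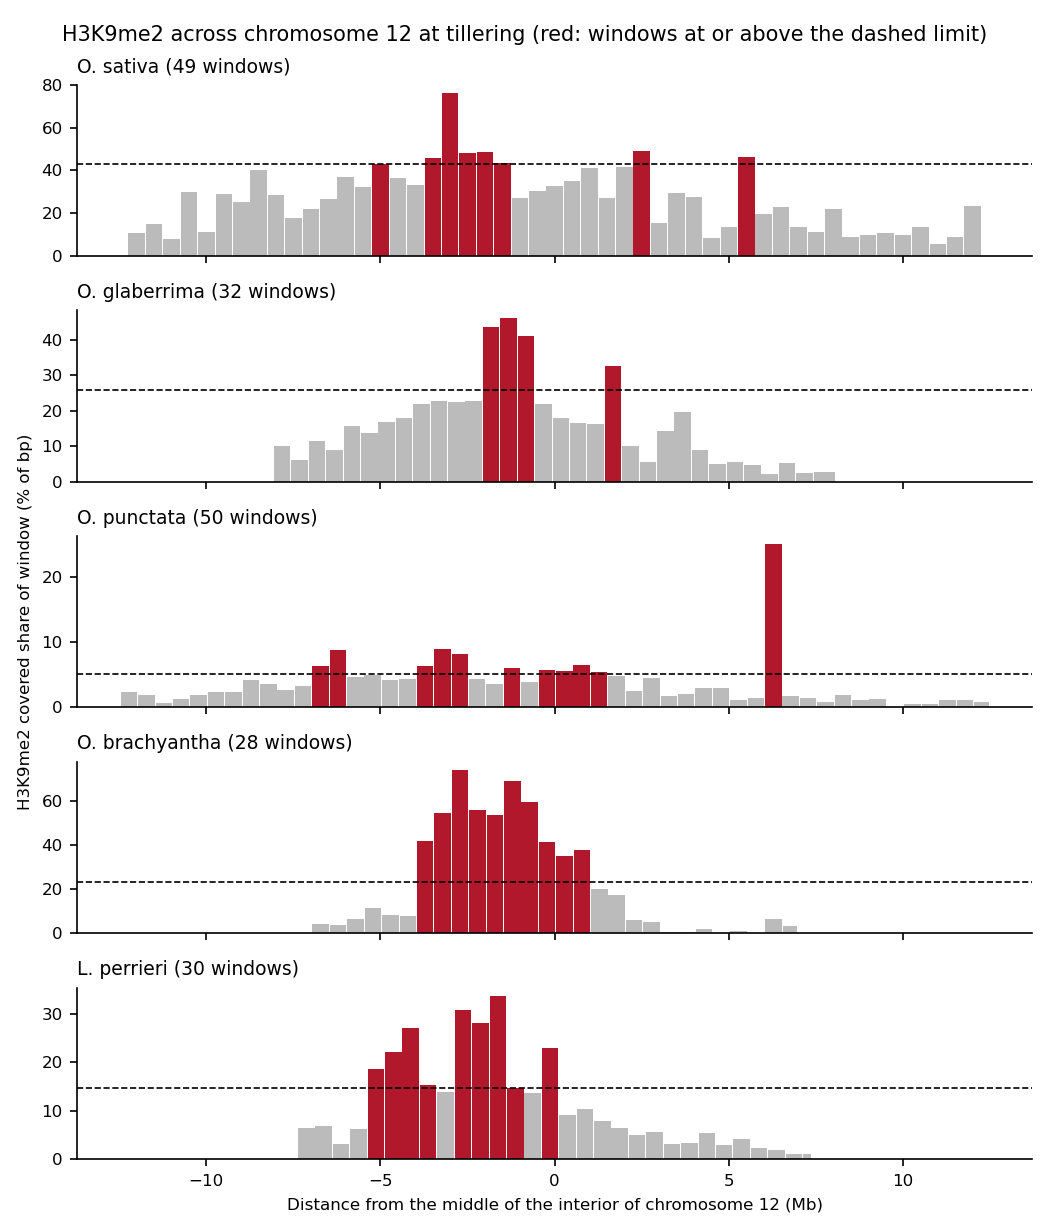
H3K9me2 covered share (% of bp) of each window of chromosome 12 at tillering, by distance from the middle of the interior (Mb). Red bars are H3K9me2-rich windows, at or above the dashed limit of each species, and vertical scales differ. The 10 red bars of O. brachyantha form 1 run, and the tallest O. punctata bar, at 25.0%, stands alone on the right arm.

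O. brachyantha had the most compact pattern. Its 10 rich windows formed a single unbroken run from 5.5 to 10.5 Mb, were the same 10 windows at both stages, and held 83.4% of the H3K9me2 bp at tillering and 80.1% in seedlings. The richest, 6.5 to 7 Mb, was covered to 69.6% and 78.7% in the tillering batches and 79.6% in the seedling library. It was followed by 8 to 8.5 Mb with 66.6% and 71.8% at tillering and 72.5% in seedlings, and by 8.5 to 9 Mb with 54.1% and 64.7% at tillering and 67.0% in seedlings. The least covered window, 15 to 15.5 Mb, had no peak in tillering batch 1, 0.244% in batch 2 and 0.390% in seedlings.

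By 500 kb window, the left edge of that run was abrupt and the right edge gradual, but in finer bins both edges had a nearly empty bin. The window from 5.5 to 6 Mb was covered to 41.8% at tillering, against 7.75% in the window before it. In bins of 100 kb, the bin from 5.4 to 5.5 Mb held 0% and 0.839% in the tillering batches and 2.10% in seedlings, and the next bin 33.8% and 40.2% at tillering and 42.5% in seedlings. All 3 libraries thus placed the left edge at the same bin. Further left, the 3 bins from 5.1 to 5.4 Mb held means of 11.4%, 14.6% and 8.56% at tillering. In seedlings they held 23.6%, 19.3% and 16.1%. On the right, the bin from 10.5 to 10.6 Mb was nearly free of the mark, with 0% and 0.681% at tillering and 4.51% in seedlings. Beyond it the share returned to a mean of 39.4% at tillering and then declined, by window, to 19.9%, 17.3%, 6.10%, 4.93% and 0.726% up to 13 Mb.

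The run was built of long intervals with few genes. The longest, chr12:8328029-8589572 on RS2, the O. brachyantha assembly named in the lists, was a 262 kb interval of tillering batch 1. The other 2 libraries covered 99.6% and 99.8% of it, H3K27me 72.4%, H3K4me3 none, and it touched 1 annotated gene. Leaving out intervals of the other batch that overlap it, the next at tillering, chr12:6617362-6739084 (122 kb) and chr12:8601071-8722377 (121 kb) of batch 2, touched no gene, and H3K27me covered 99.6% and 84.1% of them. Intervals of at least 20 kb numbered 29 and 33 in the O. brachyantha tillering batches and 40 in its seedling library. There were 26 at tillering in O. sativa, with 8 and 10 in its seedling libraries. O. glaberrima had 2, L. perrieri 1 and O. punctata none. These counts are not per Mb and depend on the q that each list accepted. They therefore rank neither the species nor the O. sativa stages. The covered share that defines rich windows grows with the width of their intervals, so wider intervals there follow in part from the definition, and the widths are given as a description. In O. brachyantha tillering batch 2 the median width was 1720 bp in rich windows and 1307 bp in the remaining ones, and the authors' median fold over control was 2.42 and 2.27. In O. sativa at tillering the widths were 2336 bp and 1358 bp, and the folds 1.34 and 1.33.

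O. sativa had a core of the same kind with a broader skirt. Its longest run of rich windows, 11 to 13.5 Mb, was the same at both stages and peaked at 11.5 to 12 Mb, with 76.4% at tillering and 70.1% and 71.3% in the seedling libraries. It was flanked by single rich windows at 9.5 to 10, 17 to 17.5 and 20 to 20.5 Mb, and in seedlings also by 8.5 to 9 and 16.5 to 17 Mb. The window from 17 to 17.5 Mb was covered to 49.0% at tillering and 43.9% and 41.0% in seedlings, and the window after it to 15.3% at tillering and 11.6% and 13.1% in seedlings. The lowest window, 25.5 to 26 Mb, had 5.72% at tillering and 3.80% and 5.0% in seedlings. Rich windows held only 30.5% of the H3K9me2 bp at tillering, and 15 of the 49 windows were needed to reach 50% of it. In O. brachyantha 6 of 28 windows sufficed. The longest tillering interval, chr12:11612473-11664225 (51.8 kb, tigr6 assembly), lay in the richest window and was covered to 94.9% and 95.6% by the seedling libraries.

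Rich windows held 31.8% of the H3K9me2 bp in O. glaberrima and 64.2% in L. perrieri. The values at tillering were 30.5% in O. sativa and 83.4% in O. brachyantha. The limit for a rich window differs between lists. It was 42.9% of bp in O. sativa, 25.8% in O. glaberrima, 23.1% in O. brachyantha and 14.6% in L. perrieri. The parts of bp in rich windows therefore do not rank the species. In the percent of windows that were rich, O. glaberrima, at 12.5%, lay below O. sativa and O. brachyantha. Its order against O. sativa depended on the setting. With 250 kb windows O. glaberrima had 16.9% and O. sativa 15.3%, and with the best 50% of peaks by q 18.8% and 18.4%. With 1 Mb windows each had 12.5%, and at a limit of 1.5 times they had 31.2% and 34.7%. O. glaberrima had 3 adjacent rich windows, with 43.8% at 8.5 to 9 Mb, 46.1% at 9 to 9.5 Mb and 41.1% at 9.5 to 10 Mb, and a separate one at 12 to 12.5 Mb with 32.8%. Its lowest window, 16.5 to 17 Mb, had 2.29%. L. perrieri had 2 humps, from 4.5 to 6.5 Mb and from 7 to 9 Mb, with 13.8% in the window between them and a further rich window at 9.5 to 10 Mb. Its richest windows were 8 to 8.5 Mb (33.7%), 7 to 7.5 Mb (30.8%) and 7.5 to 8 Mb (28.2%), and its lowest the last one, at 0.963%. The longest intervals were chr12:9643890-9674875 (31.0 kb) in O. glaberrima, inside its main run, and chr12:4993017-5017219 (24.2 kb) in L. perrieri, in the left hump. Each of these species has 1 library, so neither pattern has a replicate check.

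In O. punctata the richest window was far from the others. The window from 21 to 21.5 Mb was covered to 25.0%, against 8.98% in the next, 11.5 to 12 Mb, and 8.73% in 8.5 to 9 Mb. It was the highest of the 714 windows of all 12 O. punctata chromosomes, of which the next had 12.6%. Nearly all of it fell in 2 bins of 100 kb, from 21.3 to 21.5 Mb, with 59.2% and 56.3%, against 6.41% in the bin before and 0.176% in the bin after. The 3 longest O. punctata intervals on the chromosome all lay there, led by chr12:21369044-21383098 (14.1 kb). The window held 52 peaks, with a median of 27 per window along the chromosome, and their median width was 1452 bp against 510 bp elsewhere. Their authors' median fold was 1.43 against 1.41 elsewhere, and 7.69% of them had a −log10 q of at least 1 against 16.6% elsewhere. Peaks at that limit covered 4.13% of the window and 0.591% of the interior, and peaks at a limit of 2 covered 2.54% and 0.122%. The window held 13.4% of the chromosome's H3K9me2 bp, and without it chromosome 12 was covered to 3.31%. The lowest window, 24.5 to 25 Mb, had no peak. This library has no replicate, and 16.2% of its peaks on the chromosome had a −log10 q of 1 or more.

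On O. sativa chromosome 12 a 300 kb stretch from 20.4 to 20.7 Mb carried peaks of unlike marks and differed between libraries. Seedling replicate 2 was covered to 83.9% there, against 32.8% in replicate 1 and 28.7% in the tillering library. Its 3 intervals of at least 20 kb in this stretch, the first chr12:20469326-20527569 (58.2 kb), were covered to 7.12 to 27.4% by the other H3K9me2 libraries, to 20.8 to 22.2% by H3K4me3 and to at most 5.02% by H3K27me. By contrast, all 8 such intervals of replicate 1 and all 26 of the tillering library along the chromosome lacked H3K4me3. H3K4me3 covered 10.1% of the stretch, against 2.89% of the interior, with a median fold of 1.66 to 1.93 per 100 kb bin. H3K56Ac, whose peak names hold a setting that kept uniquely mapped reads, had no peak there, against 3.44% of the interior. H3K9me2 peaks in the seedling lists, whose names hold a setting that placed a multi-mapped read at 1 random site, had a median fold of 1.65 to 1.82 per bin in replicate 1, against 2.72 to 2.87 in the 3 bins before. The only H3K4me3 list of O. sativa is from tillering, so its overlaps with seedling H3K9me2 are across stages. Of the bp that each H3K9me2 library shared with that list on the whole interior, a part lay between 20 and 21 Mb. That part was 57.0% for the tillering library and 44.4% and 83.5% for the seedling replicates. The part of read mapping or of the control in these values was not tested. The window from 20.5 to 21 Mb had 20.4% in replicate 1 alone and 31.6% in the mean of both. That from 20 to 20.5 Mb had 40.5% in replicate 1 and stayed rich in each library.

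The stages differed in opposite directions in the 2 species profiled at both. In O. sativa the tillering library lay above both seedling libraries in 45 of 49 windows, by a median of 3.64 points, and over all 12 chromosomes 91.1% of windows did so. In O. brachyantha both tillering libraries lay below the seedling library in 25 of 28 windows, with a median difference of −3.13 points, and over all 12 chromosomes 86.5% did so. The counts on chromosome 12 were thus near those of the whole lists. When only peaks at a −log10 q of 1 or more were kept, they covered 23.8% of O. sativa chromosome 12 at tillering, which lies between the 21.8% and 24.5% of the seedling libraries, all of whose peaks pass that limit. At a −log10 q of at least 2 the O. sativa order turned round, with 2.05% at tillering and 18.6% in seedlings, whereas in O. brachyantha 21.4% and 26.1% kept it. With the best 50% of peaks by q in each list, O. sativa had 15.2% at tillering and 17.5% in seedlings. The largest stage difference in O. brachyantha was at 9 to 9.5 Mb, with 32.8% and 49.8% at tillering and 54.6% in seedlings, and the batches of 1 stage differed there by more than batch 2 differed from seedlings. The order of windows was nearly the same at both stages, with a rho of 0.971 in O. sativa and 0.992 in O. brachyantha, against 0.959 and 0.991 between libraries of 1 stage.

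**Figure D3:**
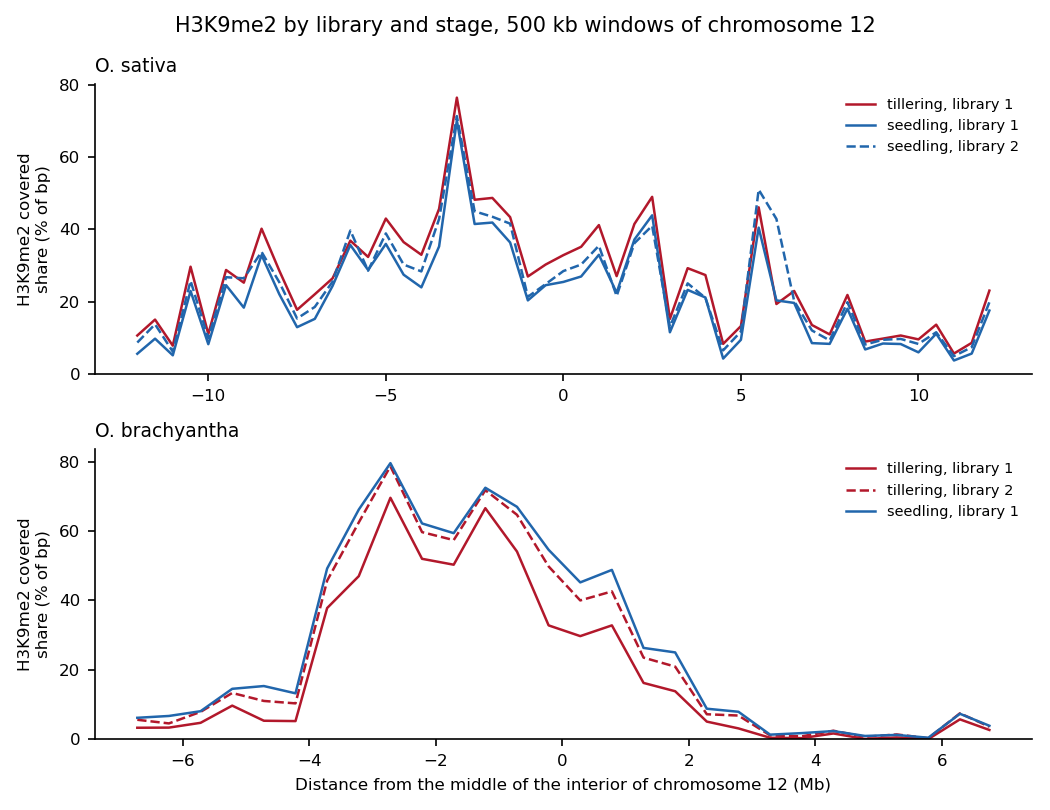
H3K9me2 covered share (% of bp) of each 500 kb window of chromosome 12 in every tillering (red) and seedling (blue) library of O. sativa and O. brachyantha, by distance from the middle of the interior (Mb). The lines keep the same shape; the dashed seedling line of O. sativa departs on the right, where it reaches 42.9% against 20.4% in its partner.

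In O. brachyantha H3K27me followed H3K9me2, and the active marks ran opposite to it. H3K27me covered 63.9% of the H3K9me2-rich windows and 11.5% of the remaining ones, a log2 ratio of 2.48, and each of the 10 rich windows (51.3 to 81.1%) lay above all remaining ones (1.36 to 34.2%). Its highest and lowest windows, 6.5 to 7 and 15 to 15.5 Mb, were also those of H3K9me2. Of the seedling H3K9me2 bp, 89.3% lay inside H3K27me peaks, which covered 30.3% of the interior. The lists share an input library.

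The active marks, with H3K4me2 among them, covered less of the rich windows, by a factor of 2.92 to 3.16. H3K4me3 at tillering covered 2.66% of rich and 7.91% of remaining windows, a log2 ratio of −1.57 ± 0.04 (SD, n = 2 batches). In seedlings the values were 2.79% and 8.42%, a log2 ratio of −1.59. H3K4me2 had 3.99% and 12.6% (log2 ratio −1.66), H3K9Ac 1.94% and 5.73% (−1.57), and H3K56Ac 2.11% and 6.17% (−1.55), in 1 list each. The window of 6.5 to 7 Mb, richest in H3K9me2, was the lowest for each of these marks, at 1.28% for tillering H3K4me3 and 0.897% for H3K9Ac. The highest windows were 15.5 to 16 Mb for H3K4me2 (20.4%) and H3K4me3 (11.2% at tillering, 13.1% in seedlings) and 14.5 to 15 Mb for H3K9Ac (9.55%) and H3K56Ac (9.42%). Over the 28 windows, Spearman's rho with H3K9me2 was −0.870 for tillering H3K4me3, −0.919 for seedling H3K4me3, −0.922 for H3K4me2, −0.857 for H3K9Ac and −0.866 for H3K56Ac. Neighbouring windows and lists of 1 batch are not independent. At the level of bp the marks hardly met: at most 0.292% of the H3K9me2 bp of either batch lay inside peaks of any of the tillering active marks. Tillering H3K4me3 peaks had a median width of 742 bp in rich and 790 bp in remaining windows and an authors' median fold of 5.25 and 5.45, and numbered 36 per Mb in rich windows and 95.2 in the remaining ones. H3K4me2 peaks were narrower in rich windows, at 499 bp against 670 bp, with a fold of 3.02 against 3.52, and numbered 58.6 and 159 per Mb.

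H3K27me2 had a smaller contrast. It covered 3.45% of rich and 6.54% of remaining windows, a log2 ratio of −0.92, and its rho with H3K9me2 was −0.477. Of its bp, 19.4% lay inside H3K9me2 peaks, against 0.111 to 0.656% for the tillering active marks (means over library pairs), and against 22.5% of the interior covered by H3K9me2. It was lowest at 8 to 8.5 Mb, with 1.73%, highest at 15.5 to 16 Mb, with 10.2%, and second highest right of the rich run, at 11 to 11.5 Mb, with 9.94%.

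**Figure D4:**
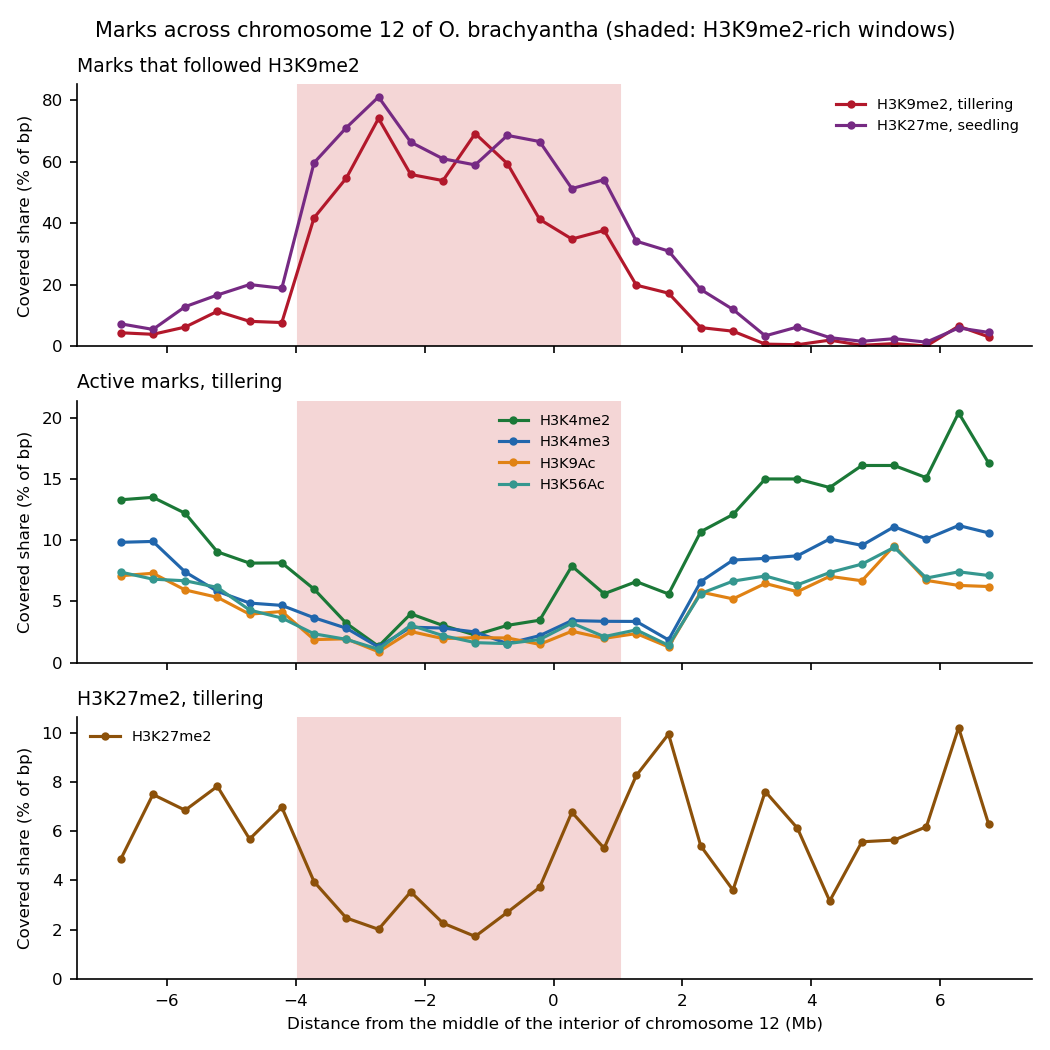
Covered share (% of bp) of 7 marks in the 28 windows of O. brachyantha chromosome 12, by distance from the middle of the interior (Mb), with the 10 H3K9me2-rich windows shaded and H3K9me2 and H3K4me3 as means of 2 batches. H3K27me rises with H3K9me2 inside the shaded run, the active marks are low there, and H3K27me2 has a second maximum of 9.94% to its right.

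In O. sativa the same marks had the same direction with smaller contrasts. H3K27me covered 50.1% of the rich and 25.5% of the remaining windows (log2 ratio 0.98), and 80.1% of the seedling H3K9me2 bp lay inside it. H3K56Ac covered 2.57% and 3.67% (−0.51), and H3K4me3 2.24% and 3.01% (−0.43). With windows of 250 kb these log2 ratios were −1.01 for H3K56Ac and −0.90 for H3K4me3. Ranges overlapped: the rich windows held 1.16 to 3.54% H3K4me3 and the remaining ones 0.645 to 6.76%. Both active marks were highest at 25.5 to 26 Mb, the window lowest in H3K9me2, with 7.83% for H3K56Ac and 6.76% for H3K4me3. Their lowest windows, 8 to 8.5 Mb for H3K56Ac (1.11%) and 15 to 15.5 Mb for H3K4me3 (0.645%), were not rich. Over the 49 windows rho with H3K9me2 was 0.938 for H3K27me, −0.641 for H3K56Ac and −0.671 for H3K4me3. The 2 windows from 20 to 21 Mb are part of these values, and without them the H3K4me3 ratio was −0.52.

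RefSeq genes of assembly ObraRS2 were placed on the O. brachyantha lists by their coordinates. The last peak of chromosome 12 ended 1777 bp after the last gene, and on the other chromosomes these ends lay at most 8160 bp apart. That the assemblies are identical was not shown from sequence, and every gene value below depends on it. The interior held 858 protein-coding genes, 124 in the H3K9me2-rich windows and 734 in the remaining ones, or 24.8 and 82.2 per Mb. The window of 6.5 to 7 Mb had 5 genes and that of 15.5 to 16 Mb had 56. Gene density had a rho of −0.925 with H3K9me2 and 0.929 with tillering H3K4me3 over the 28 windows.

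Genes inside the rich run carried H3K4me3 in a share close to that of genes outside it. H3K4me3 touched the gene body in all 3 lists at 99 of 124 genes (79.8%) in rich windows and at 578 of 734 (78.7%) in the remaining ones. The lower H3K4me3 coverage of the run went with its fewer genes: per 100 protein-coding genes per Mb, tillering H3K4me3 covered 10.7% of rich and 9.64% of remaining windows. Pseudogenes and long non-coding RNAs differed more in count, since H3K4me3 in all 3 lists touched 1 of 12 pseudogenes in rich windows and 16 of 34 outside, and 11 of 25 and 18 of 33 long non-coding RNAs. No test was made of these counts, as genes of 1 chromosome in the same libraries are not replicates.

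**Figure D5:**
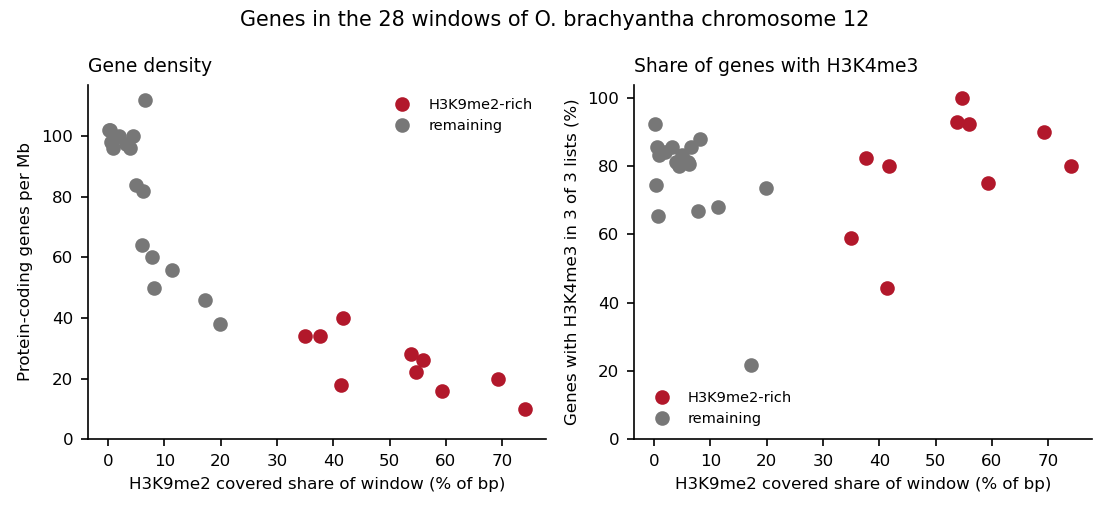
Protein-coding genes per Mb (left) and percent of them with H3K4me3 in all 3 lists (right), against the H3K9me2 covered share at tillering (% of bp), for the 28 windows of O. brachyantha chromosome 12. Density falls as H3K9me2 grows, whereas the share with H3K4me3 lies between 65.3% and 100% apart from windows at 58.8%, 44.4% and 21.7%, the last of them outside the rich run.

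Few genes were themselves covered by H3K9me2. At least 50% of the body lay inside its peaks in all 3 libraries at 9 of 858 protein-coding genes (1.05%), against 0.641% over all of the annotation. There were 4 in rich windows (3.23% of the genes there) and 5 in remaining ones (0.681%). H3K27me covered at least 50% of 8 of the 9, and of 24 of all 858. They were short, with a median length of 744 bp, against 3476 bp for all 858. The annotation used here gives no product for these genes, so they are named only. The longest, LOC102703919 (chr12:3734444-3745190), was covered to 62.8% and 60.7% at tillering and 60.9% in seedlings. It also carried H3K27me on 68.2%, H3K27me2 on 52.0% and H3K4me3 on 4.37 to 6.90% of its body. LOC102714061 (chr12:15723232-15731468) lay on the right arm, in the window of highest H3K4me3. Its body was covered to 53.3% and 77.0% at tillering and 68.1% in seedlings, and it was the 1 of the 9 with no H3K27me. LOC102709043, LOC102719918, LOC102714144, LOC102700201, LOC107303436 and LOC102711942 were covered to 100% in every library, with no H3K4me3, H3K9Ac or H3K56Ac. LOC121055975 was covered to 95.5% and 100% at tillering and 92.3% in seedlings.

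The 5 genes with the longest H3K4me3 intervals lay outside the rich run, as did 734 of all 858 protein-coding genes. LOC102704386 (chr12:13596084-13600336) had a mean of 3165 bp over the 3 lists, and H3K4me3 covered 88.3% and 87.2% of its body at tillering and 79.1% in seedlings. H3K9Ac covered none of this gene, H3K56Ac 8.21% and H3K27me2 16.6%. LOC102714604 (chr12:10511295-10514738) came next with 2696 bp. It lay in the H3K9me2-poor 100 kb bin at the right edge of the run, and H3K4me3 covered 76.9% and 77.7% of it at tillering and 86.9% in seedlings. H3K27me2 covered 69.7% of the same gene and H3K56Ac 69.5%. LOC102721498, LOC102711114 and LOC102707360 followed with 2611, 2449 and 2374 bp and no H3K27me2.

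The window from 11 to 11.5 Mb, separated from the run by the window from 10.5 to 11 Mb, was the lowest of the 28 in the share of its genes with active marks, and was singled out after its values were seen. Only 5 of its 23 protein-coding genes (21.7%) had H3K4me3 in all 3 lists, against 78.9% of all 858. The next lowest share was 44.4% at 9 to 9.5 Mb, and the window between the run and this one had 73.7%. H3K4me3 was absent from all 3 lists at 10 of the 23. The lists disagreed on the other genes, each of which had it in the seedling list and in at most 1 tillering batch. H3K9Ac touched 5 of the 23 genes (21.7%), against 72.6% of all 858, H3K56Ac 6 (26.1%), against 78.0%, and H3K4me2 17 (73.9%), against 92.8%. H3K27me2 touched 14 (60.9%), against 39.6% of all 858, a share below the 64.7% at 9.5 to 10 Mb. H3K9me2 covered 13.8% and 20.9% of the window at tillering and 25.0% in seedlings, below the limit for a rich window. Of the 3 genes of the whole interior with H3K27me2 on at least 50% of the body and no H3K4me3 in any list, 1 lay here: LOC102720198 (chr12:11244463-11246195), with H3K27me2 on 58.4% and H3K4me2 on 85.9%. The others were LOC102714798 and LOC102716750, between 12.5 and 13 Mb, with H3K27me2 on 68.1% and 100%. Over all chromosomes 0.598% of 23230 protein-coding genes met that rule.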

How the data were processed

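Per the submitters' processing notes, which name bedtools too, the authors aligned reads with Bowtie and called peaks with MACS2, a list for each library; versions are not given in the sources used here. Per the labels, controls were input, except in O. brachyantha H3K4me2 and batch 1 H3K4me3 and in replicate 2 of O. sativa seedling H3K9me2, which used histone H3. Each deposited list gives the authors' pileup signal, −log10 p, fold ratio over control and −log10 q per peak; the O. sativa H3K27me list has no pileup signal. Read depth is unknown, since the lists hold no read counts.

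Peaks were merged within a list, and covered shares were computed in Python 3.11.15 with NumPy 2.4.6, with rho from SciPy 1.17.1 and plots from Matplotlib 3.10.9. The steps were tested on simulated interval lists. Windows of 500 kb start at 2.5 Mb; a last one under 250 kb joins its neighbour. A gene belongs to the window of its midpoint. Named items are, per H3K9me2 group, the 3 highest windows, the lowest and the 3 longest intervals (of overlapping intervals in replicate lists, the longest), the extreme windows of other marks, and genes by length of body or H3K4me3 interval; items added after seeing values are said to be so or lie at 20 to 21 Mb in O. sativa, 21 to 21.5 Mb in O. punctata and the edges of the O. brachyantha run. Members, lists and rules were chosen with earlier results of these data known. Planned gene classes by product name and sequences at intervals are not reported here, because the annotation used gives no products and no genome was used. H3K9me2 and H3K4me3 of O. brachyantha at tillering were paired by the batches in the titles.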

Additional observations from a re-analysis of the deposited data

Results flagged for a closer look

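The covered share of H3K9me2 on chromosome 12 differed between tillering and seedling libraries in opposite directions in O. sativa (a difference of 3.63 points) and O. brachyantha (−4.59 points). It drew attention because every tillering library lay above every seedling library in O. sativa and below in O. brachyantha. The difference between species was not tested. With peaks of −log10 q of at least 1 the O. sativa libraries overlapped, at 23.8% at tillering and 21.8% and 24.5% in seedlings.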

How the results depend on the processing

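No difference between chromosomes and no log2 ratio turned its direction under the alternatives run. The stage order in O. sativa did, with 2.05% at tillering and 18.6% in seedlings at a −log10 q of at least 2, and 15.2% and 17.5% with the best 50% of peaks by q. The mean difference between chromosome 12 and the other chromosomes stayed positive, at 3.57 to 5.13 points with peaks of −log10 q of at least 1, the best 50% of peaks, whole chromosomes or seedling lists, and at 3.33 to 5.74 without 1 species or batch. Covered shares were called moved beyond a relative SD of replicate libraries. It was 8.21% between the O. sativa seedling libraries and 16.6% between the O. brachyantha tillering batches. The first was used for both O. sativa groups and the second for all others, so groups of 1 library have a borrowed SD. Peaks of −log10 q of at least 1 gave 23.8% for O. sativa at tillering, 0.591% for O. punctata and 6.50% for L. perrieri. At a limit of 2 these were 2.05%, 0.122% and 0.683%, with 4.08% for O. glaberrima and 18.6% for O. sativa seedlings. The best 50% of peaks by q gave 15.2% for O. sativa at tillering, 17.5% for its seedlings, 8.92% for O. glaberrima, 1.95% for O. punctata and 7.01% for L. perrieri. The O. brachyantha shares moved under none of these. A limit of 1.5 times made 34.7% of windows rich in O. sativa at tillering, 32.7% in its seedlings, 31.2% in O. glaberrima and 40.0% in O. punctata, and 1 Mb windows 12.5% in O. sativa seedlings; the cause was not tested.

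Log2 ratios of other marks moved by more than the SD of 0.04 between H3K4me3 batches in many cases. In O. sativa, H3K27me was 1.18 with the best 50% of peaks, 1.06 with 250 kb windows, and 0.851 to 0.975 without a H3K9me2 replicate. H3K56Ac was −0.692 at 1.5 times, −0.457 with the best 50% and −1.01 with 250 kb windows, and H3K4me3 was −0.706 at 1.5 times, −0.901 with 250 kb windows and −0.521 without the windows at 20 to 21 Mb, an alternative chosen after seeing the data. In O. brachyantha, the limit of 1.5 times gave −1.67 for seedling H3K4me3, 2.73 for H3K27me, −1.62 for H3K4me2 and −0.727 for H3K27me2. The best 50% of peaks gave −1.71 for seedling H3K4me3, 2.84 for H3K27me, −1.88 for H3K4me2, −1.61 for tillering H3K4me3, −1.51 for H3K9Ac, −1.19 for H3K27me2 and −1.59 for H3K56Ac. Windows of 250 kb gave 2.56 for H3K27me, −1.62 for tillering H3K4me3, −0.761 for H3K27me2 and −1.58 for H3K56Ac.

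With the batch as a replicate block, the rho of H3K4me3 and H3K9me2 in O. brachyantha at tillering was −0.845 within batch 1 and −0.889 within batch 2, against −0.870 for the means. Depth is unknown, so a window with no peak may still hold the mark.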
